A study of Mus musculus with 6 samples.

Results

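The mitochondrial ribosomal protein genes of mouse were taken as the rows of the deposited gene tables whose symbol is Mrpl or Mrps followed by a number and, at most, a letter from a to c. This rule found 78 of 57508 rows, 49 for the large subunit (Mrpl) and 29 for the small subunit (Mrps), and it used no measured value. RNA came from KPC1199, a mouse cell line labelled as pancreatic tumor cells, in 3 libraries of genotype WT and 3 of ACSL5 knockdown. ACSL5 is an acyl-CoA synthetase that activates long-chain fatty acids. The library names read siACSL5_CY3 in the WT group and siACSL5_2260 in the knockdown group, names that the labels leave unexplained. The titles call the second group a KO where the genotype field says knockdown. Whether the libraries of a group are separate cultures is not stated, so p-values measure the spread between libraries, which may be technical.

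Mitochondrial ribosomes translate the few proteins that the mitochondrial genome encodes, all of them subunits of the oxidative phosphorylation complexes. Their 2 rRNAs come from the mitochondrial genome, but every ribosomal protein is encoded in the nucleus, made in the cytosol and imported. Some of these proteins descend from bacterial ribosomal proteins, and others were added in the mitochondrial lineage.

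Library totals lay between 21794244 and 29996194 expected counts. Levels are given as CPM, the count scaled to a fixed library total with TMM factors, and log2 fold changes are knockdown minus WT. Acsl5 stood at 342, 265 and 270.2 CPM in WT replicates 1 to 3 and at 49.8, 55.6 and 57.2 CPM in the knockdown libraries, as the labels say. WT replicate 1 stood apart: the chi-square statistic per gene of its counts was 297 against WT replicate 2 and 327 against WT replicate 3, while the other pairs within a group gave 3.34 to 16.8. Results are therefore given with and without it. All 6 epithelial markers averaged above 1 TPM, with a summed level of 7850 to 9053 TPM in a library. Endothelial and acinar markers did so for 0 of 3 and 0 of 4 genes, leukocyte markers for 1 of 6, with summed levels of 3.42 to 8.64 TPM, and fibroblast markers for 4 of 7, with summed levels of 42.3 to 102 TPM in WT and 75.6 to 84.3 TPM in knockdown. In bulk RNA, a change in the number of cells of a type and a change in RNA per cell cannot be told apart.

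Whether the mitoribosomal genes were higher or lower in the knockdown depended on WT replicate 1. They took 0.596% of all counts in WT replicate 1, 0.308% in WT replicate 2 and 0.309% in WT replicate 3. The shares in knockdown replicates 1 to 3 were 0.348%, 0.340% and 0.356%. The 3 knockdown libraries thus lay above WT replicates 2 and 3, by a factor of 1.13 between the means, and below WT replicate 1. Large subunit genes took 0.386% in WT replicate 1, 0.201% in each other WT library and 0.222% to 0.232% in knockdown. Small subunit genes took 0.210%, then 0.107% and 0.108%, and 0.118% to 0.124% in the same groups. In both subunits WT replicate 1 was the highest library and the knockdown libraries lay above WT replicates 2 and 3. On the TPM scale, which accounts for length, the summed level of large over small subunit genes was 1.79 ± 0.0613 (SD, n = 2) in WT replicates 2 and 3 and 1.81 ± 0.0280 (SD, n = 3) in knockdown, a difference smaller than the SD of the WT pair, and it was 1.67 in WT replicate 1.

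**Figure D1:**
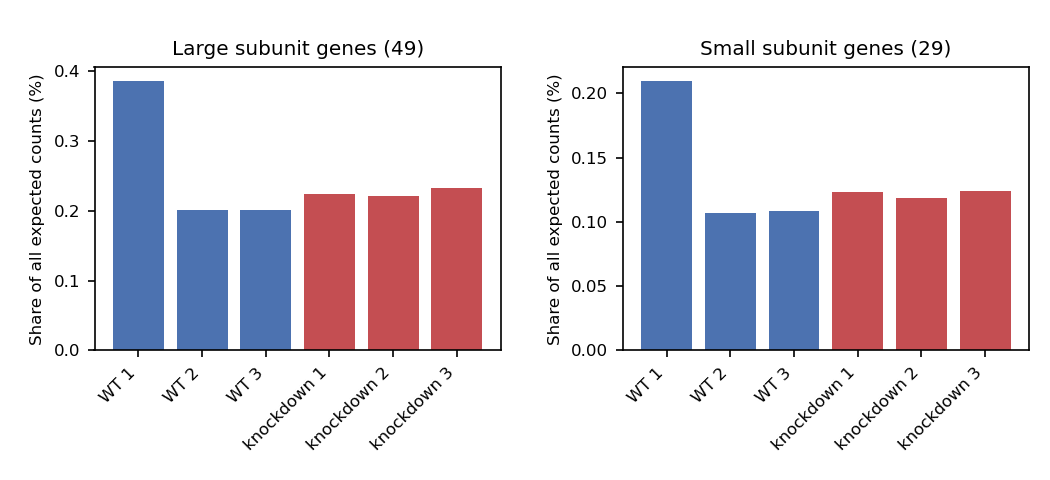
Share of all expected counts (vertical axes, %) taken by the large and the small subunit genes in each library; each bar is 1 library, WT in blue and ACSL5 knockdown in red. WT replicate 1 is the highest bar in both panels, and the knockdown bars lie above WT replicates 2 and 3.

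Over all 6 libraries no mitoribosomal gene was called by the quasi-likelihood test of edgeR at a Benjamini-Hochberg adjusted p below 0.05, where 0 of 14679 genes (0%) were called in either direction. At an unadjusted p below 0.05 there were 3 of 78 (Mrpl53 higher, Mrpl48 and Mrpl33 lower) against 16.0% of all genes tested. DESeq2 called 1, Mrpl53, against 7.68% of all genes. The log2 fold change was negative in 62 members and positive in 16, with a median of -0.37 for the large and -0.41 for the small subunit beside -0.02 over all genes. On log2(TPM + 1) the same medians were 0.00 and 0.05 beside 0.26 over all genes, so their sign depended on the scale while they lay under the all-gene median on both. The knockdown libraries all lay above the WT libraries in 2 members, Mrps12 and Mrpl53 (18.7% of all genes), and all below them in 10 (15.6%).

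Without WT replicate 1 all 78 genes were tested, 26 were higher in the knockdown and 5 lower, where edgeR called 16.3% of 15152 genes higher and 18.0% lower, 34.3% together. The members' shares were 33.3% higher and 6.41% lower. The median log2 fold change was 0.11 for the large and 0.12 for the small subunit, beside -0.01 over all genes, and 56 members were positive and 22 negative. All 3 knockdown libraries lay above both WT libraries in 40 members (30.4% of all genes) and below both in 10 (29.3%). The sizes were modest: 4 of the 26 were above 1 on the log2 scale, 13 of the 26 were below 0.5, and none of the 5 fell by more than 0.50. Knockdown replicate 1 was the highest knockdown library in 14 of the 26. Without it 36 members were higher and 6 lower, where 3154 and 3034 of all 14936 genes tested were. With a single WT library left, the medians were 0.13 (large) and 0.11 (small) without WT replicate 2 as well. They were 0.11 and 0.14 without WT replicate 3 as well. Those fits take the spread of the single remaining WT library to equal that of the knockdown group.

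Dropping that library turned the sign of 40 members, 26 large and 14 small, from negative to positive, and turned none the other way. A further 22 were negative in both fits and 16 positive in both. Among the 26 called higher, 12 had a negative fold change over all 6 libraries, while all 5 called lower were negative in both. Limma-voom with quality weights, which gives a library that stands apart less weight, called 29 higher and 4 lower over all 6 libraries, beside 20.6% and 19.7% of all genes.

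**Figure D2:**
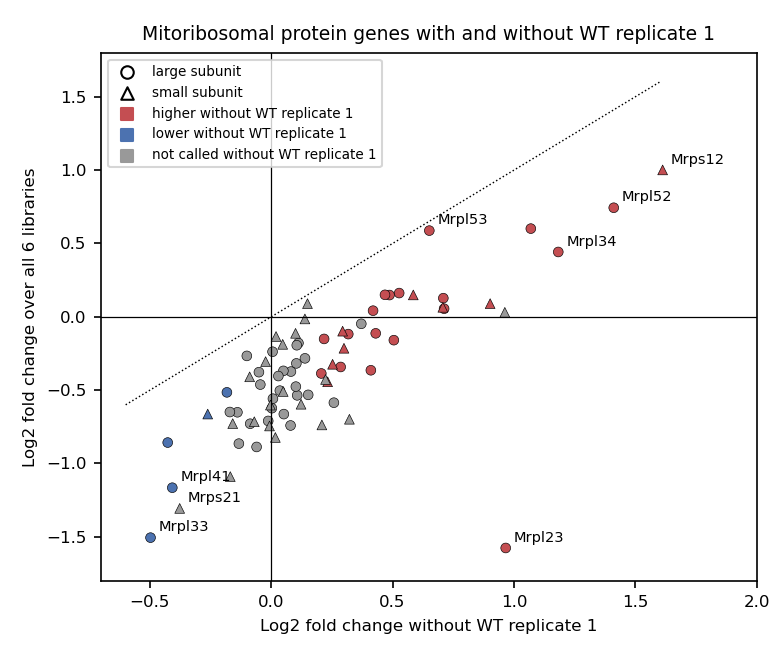
Log2 fold change (knockdown minus WT) of each of the 78 genes without WT replicate 1 (horizontal) and over all 6 libraries (vertical); circles are large and triangles small subunit genes, colours give the call without WT replicate 1, and the dotted line marks equal values. The 40 genes to the right of and below the zero lines are negative over 6 libraries and positive without WT replicate 1; Mrps12, at 1.61 and 1.0, is the highest in both.

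Mrps12 encodes the small subunit protein of the decoding centre, Mrpl53 a mitochondria-specific large subunit protein and Mrpl33 a large subunit protein with a bacterial homologue. Their promoters are shown because Mrps12 and Mrpl53 are the members in which every knockdown library lay above every WT library, and Mrpl33 is the called member with the lowest fold change. The RefSeq windows of build GRCm38.p6 run from 250 bases before to 50 bases after the annotated start, 5′ to 3′ on the gene's strand: chr7:28741772-28742071, minus strand, for Mrps12, chr6:83108858-83109157, plus strand, for Mrpl53, and chr5:31613701-31614000, plus strand, for Mrpl33. Capitals mark matches, on either strand, to the ETS-type core CCGGAAG, the YY1-type core ATGGCGG and the NRF1-type core GCGCATG, and none of these matches overlap.
Mrps12: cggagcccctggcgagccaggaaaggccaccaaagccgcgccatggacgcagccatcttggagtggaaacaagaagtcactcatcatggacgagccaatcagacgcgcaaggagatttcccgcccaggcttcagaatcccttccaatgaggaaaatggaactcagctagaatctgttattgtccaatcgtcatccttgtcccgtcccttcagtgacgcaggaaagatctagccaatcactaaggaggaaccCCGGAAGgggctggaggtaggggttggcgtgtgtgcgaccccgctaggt
Mrpl53: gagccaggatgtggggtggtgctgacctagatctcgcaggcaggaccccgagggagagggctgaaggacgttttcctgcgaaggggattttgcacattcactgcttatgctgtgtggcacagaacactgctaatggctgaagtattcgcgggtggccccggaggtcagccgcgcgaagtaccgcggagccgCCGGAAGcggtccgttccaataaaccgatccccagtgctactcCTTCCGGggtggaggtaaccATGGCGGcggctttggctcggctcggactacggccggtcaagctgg
Mrpl33: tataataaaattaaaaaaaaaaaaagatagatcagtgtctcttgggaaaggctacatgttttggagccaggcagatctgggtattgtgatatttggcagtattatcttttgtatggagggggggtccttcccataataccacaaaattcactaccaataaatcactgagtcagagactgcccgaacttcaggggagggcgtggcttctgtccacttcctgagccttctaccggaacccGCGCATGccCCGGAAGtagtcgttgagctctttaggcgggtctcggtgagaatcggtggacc
The window of Mrps12 holds 1 ETS-type match, that of Mrpl53 holds 2 and a YY1-type match, and that of Mrpl33 holds 1 and an NRF1-type match. A match describes letters and shows no binding. The annotated gene Mrpl33 behind the counts spans chr5:31596935-31664384 on the plus strand. Its RefSeq window therefore lies inside that gene and not at its 5′ end.

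A window was found for 69 of the 78 genes. CCGGAAG, searched on both strands, was present in 25 of them (36.2%), against 9.12% of all 27025 RefSeq windows and 18.2% of the windows of genes tested here. GCGCATG was present in 8 (11.6%), against 4.04% and 7.02%. ATGGCGG was present in 13 (18.8%), against 4.19% and 8.20%. The E-box CACGTG, the same on both strands, was present in 5 (7.25%), against 7.24% and 10.1%. Of the 26 genes called higher without WT replicate 1, 11 were among the 25 with the ETS-type core and 12 among the 44 without it, and 3 had no window. Of those called lower, 1 held the core and 4 did not. Over all genes tested 16.3% were called higher and 18.0% lower. The shares among all genes with the core were not computed, and a link between core and call was not tested. Median log2 fold changes were 0.08 with and 0.10 without the ETS-type core, 0.10 and 0.10 for the NRF1-type core, 0.21 and 0.08 for the YY1-type core, and 0.32 and 0.10 for the E-box, which only 5 members hold.

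Mrps12 stood at 18.0, 7.71 and 6.0 CPM in WT replicates 1 to 3 and at 21.5, 19.9 and 21.8 CPM in knockdown replicates 1 to 3. Every knockdown library was above every WT library. The log2 difference of Mrps12 was 1.61 (SE 0.126, edgeR adjusted p = 1.44e-05) without WT replicate 1 and 1.0 (adjusted p = 0.316) with it. The TPM values were 78.1, 34.8 and 29.6 in WT and 71.1, 62.3 and 65.0 in knockdown, so that on that scale WT replicate 1 lay above the knockdown libraries. The neighbouring gene Sars2, the mitochondrial seryl-tRNA synthetase, starts 172 bases away on the other strand, and its log2 fold change was 0.31 (adjusted p = 0.0546). Mrpl53, singled out after its values were seen, stood at 20.9, 19.7 and 16.2 CPM in WT and at 28.8, 28.8 and 27.6 CPM in knockdown. It was the only member whose level in WT replicate 1 lay under the mean of the other 5 libraries on the log2 scale, by 0.17. Its log2 fold change was 0.65 (adjusted p = 0.000651) without WT replicate 1 and 0.59 (adjusted p = 0.159) with it. The annotated gene Gm42688 shares 695 exonic bases with Mrpl53 on the same strand, and the deposited length of Mrpl53 is also 695 bases. Reads from the shared bases cannot be assigned to either gene, so the value of Mrpl53 is uncertain in every fit. Mrpl33 stood at 124, 30.2 and 30.4 CPM in WT and at 21.3, 20.5 and 23.2 CPM in knockdown, below every WT library. Its log2 fold change was -0.50 (adjusted p = 0.00116) without WT replicate 1 and -1.51 (adjusted p = 0.298) with it. Mrpl33 shares 261 exonic bases with Gm43809 on the same strand.

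Among the 49 large subunit genes 18 rose and 4 fell without WT replicate 1 (36.7% and 8.16%, beside 16.3% and 18.0% of all genes), and 27 were not called. Mrpl52, a mitochondria-specific protein, stood at 8.29 and 8.93 CPM in WT replicates 2 and 3 and at 28.6, 16.3 and 24.8 CPM in knockdown, a rise of 1.41 on the log2 scale (SE 0.268, adjusted p = 0.0148). WT replicate 1 had 24.6 CPM, between the knockdown values. On the TPM scale the groups of Mrpl52 overlapped (262 TPM in WT replicate 2 and 130.3 TPM in WT replicate 3, against 318, 186 and 209.7 TPM in knockdown), and its log2 fold change was 0.32 (limma adjusted p = 0.59). Mrpl34, a short protein with a bacterial homologue, stood at 6.96 and 7.66 CPM in WT replicates 2 and 3 and at 21.5, 13.1 and 16.0 CPM in knockdown (log2 fold change 1.18, adjusted p = 0.00507). Mrpl57 stood at 4.70 and 3.28 CPM and at 9.99, 5.83 and 9.41 CPM in the same groups (1.07, adjusted p = 0.0228). In all 3 genes the knockdown libraries differed among themselves more than the WT pair did.

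Mrpl23, a protein at the exit of the peptide tunnel, was the member most affected by WT replicate 1. It stood at 34.6 CPM there, at 2.66 and 1.75 CPM in WT replicates 2 and 3 and at 5.12, 4.31 and 3.54 CPM in knockdown. The log2 fold change was 0.97 (adjusted p = 0.0122) without that library and -1.58 (adjusted p = 0.504) with it. The pseudogene Mrpl23-ps1 held 171 to 406 expected counts in each library, so reads may be split between these rows and the value of Mrpl23 is uncertain. Mrpl46, a mitochondria-specific protein, stood at 15.03 and 13.3 CPM in WT replicates 2 and 3 and at 22.5, 23.2 and 24.6 CPM in knockdown (0.71, adjusted p = 0.000369), and 39.5 CPM in WT replicate 1. Mrps11 starts 412 bases away on the other strand and shares 173 exonic bases with Mrpl46, and its log2 fold change was 0.10 (adjusted p = 0.366). Mrpl19 stood at 32.5 and 34.9 CPM and at 50.9, 44.7 and 47.8 CPM (0.49, adjusted p = 0.00061), and shares 1962 exonic bases with Gcfc2 on the opposite strand. The other large subunit genes that rose ranged from 0.21 for Mrpl35 to 0.71 for Mrpl36.

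The large subunit genes that fell were Mrpl33, Mrpl48, Mrpl41 and Mrpl50. Mrpl48 stood at 17.6 and 17.7 CPM in WT replicates 2 and 3 and at 13.1, 12.3 and 14.5 CPM in knockdown (log2 fold change -0.43, adjusted p = 0.00893). Mrpl41 stood at 22.7 and 23.8 CPM and at 16.6, 17.5 and 19.0 CPM (-0.41, adjusted p = 0.00667). Mrpl50 stood at 61.4 and 65.4 CPM and at 57.3, 53.5 and 58.7 CPM (-0.18, adjusted p = 0.0401). These 3 are mitochondria-specific proteins. In each of the 4 genes all knockdown libraries lay below all WT libraries, and WT replicate 1 was the highest library. Mrpl48 shares 708 exonic bases with Rab6a on the opposite strand. The call of Mrpl50 was lost when the trend with GC content was removed (-0.05, adjusted p = 0.57).

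Mrpl12, Mrpl10, Mrpl45 and Mrpl58, described for their function, were not called, and Mrpl10 and Mrpl45 were picked after their values were seen. Mrpl12, the stalk protein that also binds the mitochondrial RNA polymerase, stood at 286, 109 and 99.8 CPM in WT and at 114, 109.7 and 117 CPM in knockdown, so the knockdown libraries lay just above WT replicates 2 and 3, and its log2 fold change without WT replicate 1 was 0.11 (adjusted p = 0.18). Mrpl10, which anchors the stalk, had a log2 fold change of 0.11 (adjusted p = 0.129). Mrpl45, which ties the ribosome to the inner membrane, stood at 119 and 118 CPM in WT replicates 2 and 3 and at 114, 125 and 122 CPM in knockdown (0.01, adjusted p = 0.956). Mrpl58, a peptidyl-tRNA hydrolase built into the large subunit, had a log2 fold change of -0.06 (adjusted p = 0.625). The 27 large subunit genes not called ranged from -0.17 to 0.37, 25 of them within 0.25 of 0.

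**Figure D3:**
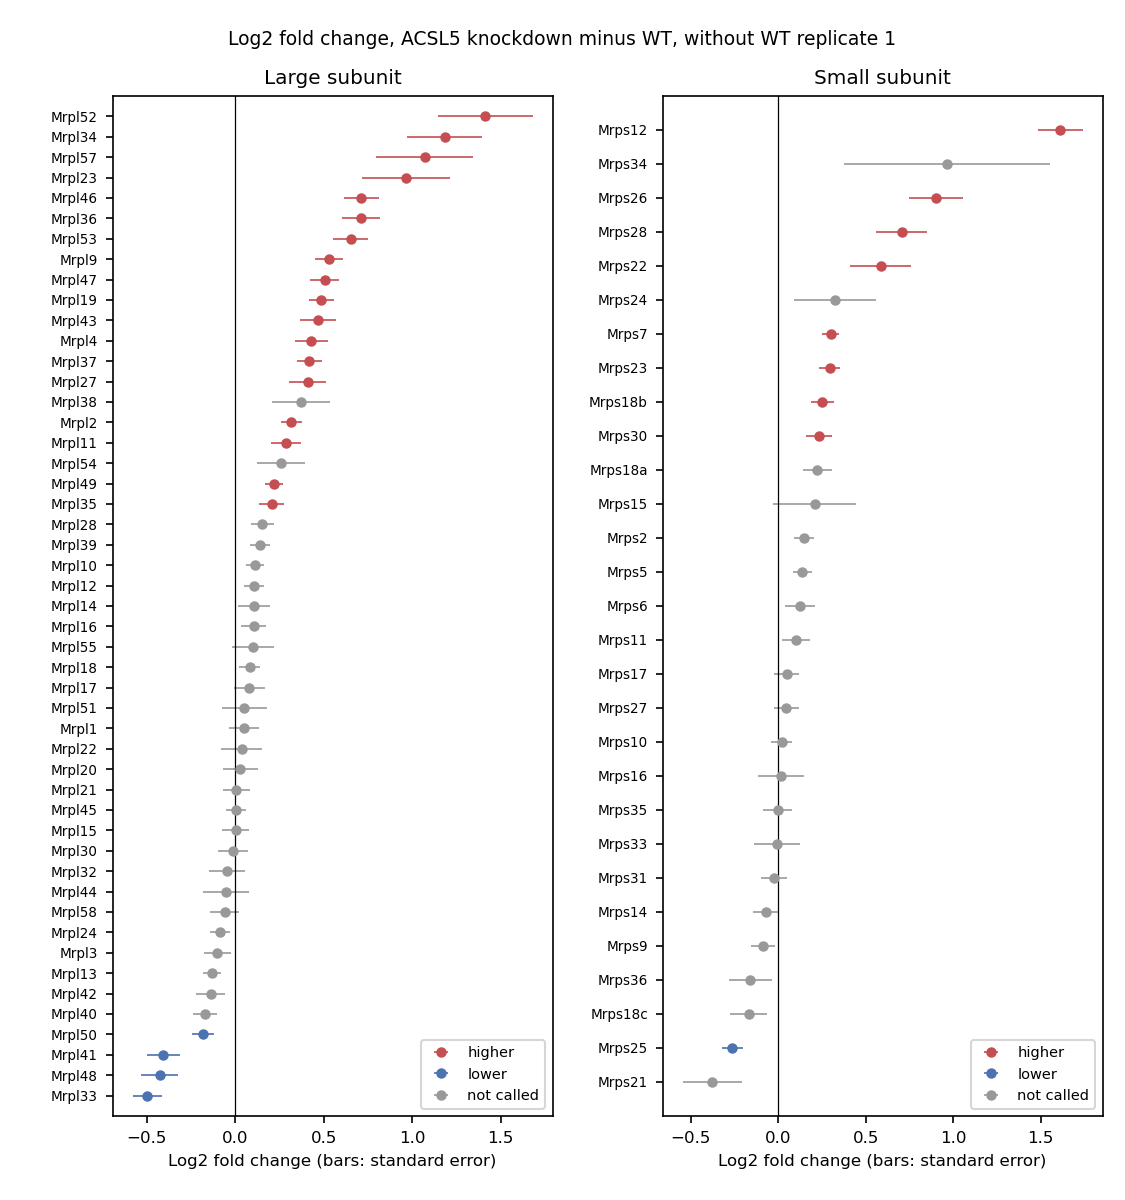
Log2 fold change (horizontal axes, knockdown minus WT, edgeR without WT replicate 1) of the 49 large and 29 small subunit genes, ordered by value; bars are standard errors and colours give the call at an adjusted p below 0.05. In both panels genes called higher extend further from 0, to 1.41 and 1.61, than those called lower, to -0.50 and -0.26.

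Among the 29 small subunit genes 8 rose and 1 fell without WT replicate 1 (27.6% and 3.45%, beside 16.3% and 18.0% of all genes), and 20 were not called. The difference between the subunits was not tested, and their medians differed by 0.02. After Mrps12 the highest called gene was Mrps26, a mitochondria-specific protein, which stood at 16.7 and 19.96 CPM in WT replicates 2 and 3 and at 42.1, 30.7 and 31.6 CPM in knockdown (log2 fold change 0.90, adjusted p = 0.00504), with 61.6 CPM in WT replicate 1. Mrps28 stood at 9.22 and 7.34 CPM and at 15.5, 11.9 and 13.5 CPM (0.71, adjusted p = 0.00377). Mrps22 stood at 18.6 and 20.6 CPM and at 37.4, 26.3 and 25.7 CPM (0.59, adjusted p = 0.0471), and its call was lost with the GC trend removed at a value no smaller (0.63, adjusted p = 0.054). Mrps7, which contacts the rRNA of the head domain, had a smaller and tighter difference, at 77.3 and 79.8 CPM in WT replicates 2 and 3 against 97.7, 96.4 and 99.2 CPM in knockdown (0.30, SE 0.0497, adjusted p = 0.00112). On the TPM scale the difference of Mrps7 was 0.05 (limma adjusted p = 0.76).

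Mrps25 was the small subunit gene that fell. It stood at 127, 64.5 and 62.3 CPM in WT and at 50.7, 55.5 and 54.0 CPM in knockdown (log2 fold change -0.26, adjusted p = 0.00812). It shares 4590 exonic bases with Nr2c2 on the opposite strand, and the call was lost with the GC trend removed (-0.16, adjusted p = 0.073). Mrps21 had the lowest small subunit value without being called, at 42.6 and 41.8 CPM in WT replicates 2 and 3 against 26.4, 32.8 and 39.0 CPM in knockdown (-0.38, adjusted p = 0.155). In 10 alternatives it was called lower, among them log2(TPM + 1) (-0.32, limma adjusted p = 0.0256). Mrps34, a gene chosen for mention after its values were seen, had the second highest value of the subunit and was not called. Its knockdown replicate 1 stood at 52.0 CPM and the others at 19.7 and 22.3 CPM, against 16.2 and 15.4 CPM in WT replicates 2 and 3 (0.96, SE 0.588, adjusted p = 0.321). Mrps34 shares 763 exonic bases with Nme3 on the same strand and 1309 with Mapk8ip3 on the opposite strand, so its value is uncertain.

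The 3 Mrps18 paralogs occupy different places, Mrps18a in the large subunit despite its name and Mrps18b and Mrps18c in the small. Mrps18b stood at 74.0 and 76.6 CPM in WT replicates 2 and 3 and at 84.1, 94.4 and 93.5 CPM in knockdown (log2 fold change 0.25, adjusted p = 0.0113). Mrps18a had 0.22 (adjusted p = 0.0634) and Mrps18c -0.17 (adjusted p = 0.256). In 10 alternatives Mrps18a was called higher, among them log2(TPM + 1) (0.28, limma adjusted p = 0.0431). Differences between the paralogs were not tested. Mrps30, also placed in the large subunit by structure, stood at 23.5 and 24.0 CPM and at 28.3, 28.4 and 28.0 CPM (0.23, adjusted p = 0.0332). Mrps36, now known as a component of the oxoglutarate dehydrogenase complex, had -0.16 (adjusted p = 0.348). With Mrps18a and Mrps30 moved and Mrps36 left out, 19 of 51 large and 7 of 26 small subunit genes rose, and 4 and 1 fell. Of all genes, 16.3% rose and 18.0% fell.

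Proteins with bacterial homologues and mitochondria-specific proteins were compared by counts and medians only, without WT replicate 1. In that fit 16.3% of all genes rose and 18.0% fell, with a median of -0.01. By name, 11 of 30 large subunit genes with a homologue rose and 1 fell (median 0.10), and 7 of 19 without one rose and 3 fell (median 0.14). In the small subunit 4 of 18 with a homologue rose and none fell (median 0.13), and 4 of 10 without one rose and 1 fell (median 0.14).

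**Figure D4:**
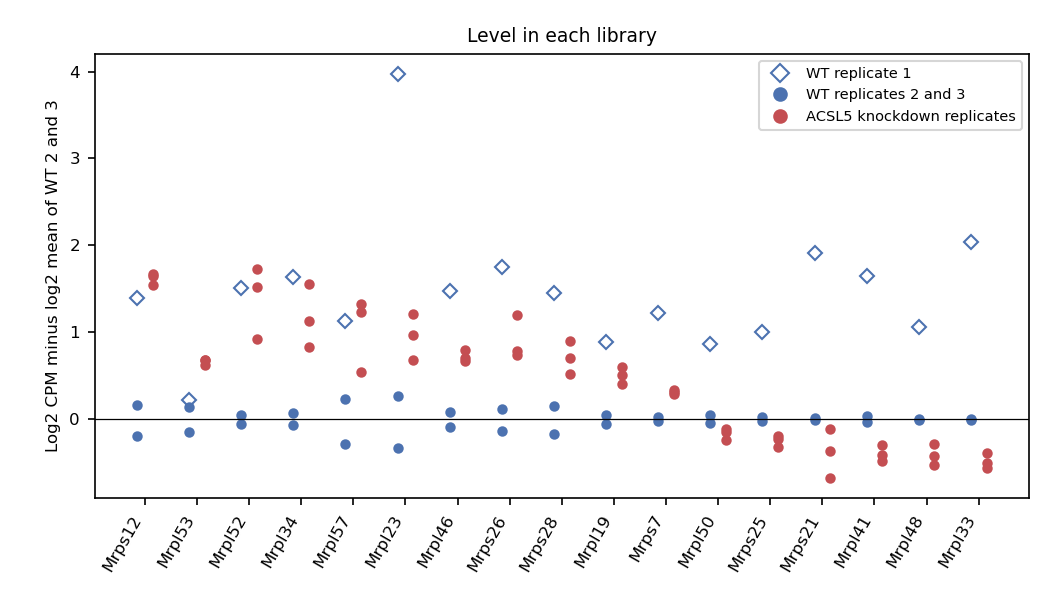
Level of 17 mitoribosomal genes in each library as log2 CPM minus the log2 mean of WT replicates 2 and 3 (vertical axis); open diamonds are WT replicate 1, blue points WT replicates 2 and 3 and red points the knockdown libraries. WT replicate 1 lies highest in most genes, including those that fell, and at 34.6 CPM far above the rest in Mrpl23, while in Mrps12 and Mrpl53 the knockdown points lie above it.

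The level of WT replicate 1 was shared by nearly the whole family. By CPM it was the highest of the 6 libraries in 74 of 78 genes, and above both other WT libraries in all 78, but by TPM it was the highest in 43. Its difference from the mean of the other 5 libraries on the log2 scale had a median of 1.05 in the large and 1.19 in the small subunit and ranged from -0.17 to 3.21. Over all genes this difference moved with gene length, from a median of 0.96 in the shortest class of genes to -0.81 in the longest. In the mitoribosomal genes it stayed between 0.84 and 1.34 in every length class, with 4 to 18 genes in each. The classes use the deposited gene length, and the transcripts present can be shorter. Mrpl17, at 7300 bases, had 28.7 CPM and 58.9 TPM in WT replicate 2, where Mrpl10, at 1708 bases, had 96.9 CPM and 102.7 TPM. Whether the difference in these genes moved with the length of the transcripts present was not tested. The members are short, with a median length of 1324 bases against 2694 over all genes tested, and their GC content is close to that of all genes (median 49.8% against 49.2%). With length and GC trends removed over all 6 libraries, Mrps12 (1.32, adjusted p = 0.0174) and Mrpl52 (1.46, adjusted p = 0.0497) were called higher and no member lower, beside 1.70% and 2.26% of all genes, and the medians were -0.14 and -0.13.

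**Figure D5:**
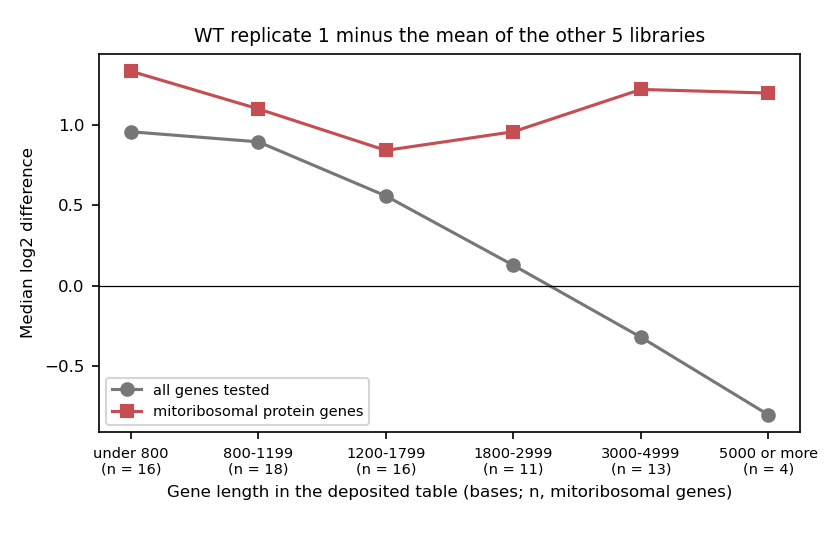
Median difference of WT replicate 1 from the mean of the other 5 libraries (vertical axis, log2) by gene length in bases (horizontal axis, with the number of mitoribosomal genes in each class), for all genes tested in grey and mitoribosomal genes in red. The grey line runs from 0.96 to -0.81 and the red points stay between 0.84 and 1.34. Length is the deposited gene length, and the transcripts present can be shorter.

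Without WT replicate 1 the fold change moved with GC content instead. Over all genes its median ran from -0.16 below 40% GC to 0.48 at 60% or more, and the share called higher from 4.61% to 45.5%. In the members the median was 0.00 in the 18 genes with 40% to 45% GC, 0.03 in the 22 with 45% to 50%, 0.25 in the 21 with 50% to 55% and 0.31 in the 14 with 55% to 60%. With the GC trend removed 28 members were called higher and 4 lower, beside 15.6% and 16.0% of all genes, and 27 of the 31 calls were shared with the same direction. On log2(TPM + 1), limma called 15 higher and 4 lower, beside 10.5% and 7.26% of all genes, and 16 of these calls were shared. Of the genes described one by one, Mrpl52, Mrpl57, Mrpl19, Mrpl33, Mrpl50, Mrps7, Mrps22, Mrps25, Mrps26 and Mrps30 were not called there. Of the 31 called members 30 kept their sign on that scale, and Mrpl35 had -0.20. Exonic bases are shared with another gene in 33 members, in 28 of them on the opposite strand, and strandedness is not given. The 45 members that share none gave 13 higher and 2 lower in the edgeR fit, beside 16.3% and 18.0% of all genes.

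Per length, the most abundant members over the 5 libraries were Mrps21 at a mean of 230.1 TPM, Mrpl52 at 221 and Mrpl42 at 185 TPM. Mrpl23 at 8.58 and Mrps30 at 12.4 TPM were the least abundant. Median TPM was 65.2 in the large and 55.2 in the small subunit. Mrpl42, a mitochondria-specific protein, had a log2 fold change of -0.14 (adjusted p = 0.222).

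Genes of the family lie on 17 chromosomes, and 33 of 78 (42.3%) start within 1000 bases of a gene on the other strand that runs the opposite way, against 16.1% of the 12557 protein-coding genes tested. Of these 33, 14 rose and 3 fell without WT replicate 1, where 26 and 5 of all 78 members did (33.3% and 6.41%) and 16.3% and 18.0% of all genes. Of 15 called members with a tested neighbour, the neighbour was called in the same direction in 2 and in the opposite direction in 3. Mrpl57 and Ska3, a kinetochore gene whose start is 49 bases away, both rose (1.07 and 0.26, adjusted p of Ska3 = 0.0308). Mrpl50 and Zfp189, 83 bases away, moved in opposite directions (-0.18 and 0.58, adjusted p of Zfp189 = 0.00427).

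Of the 5 mitoribosomal proteins with other names, Aurkaip1 rose and Ptcd3 fell without WT replicate 1. Aurkaip1 stood at 35.5 and 33.4 CPM in WT replicates 2 and 3 and at 47.8, 49.4 and 46.8 CPM in knockdown (log2 fold change 0.46, adjusted p = 0.000429). Ptcd3 stood at 80.6 and 84.0 CPM and at 70.1, 73.5 and 73.9 CPM (-0.20, adjusted p = 0.0152), and it was not called with the GC trend removed (-0.06, adjusted p = 0.397) or on the TPM scale, where it had 0.07. Dap3 (-0.04, adjusted p = 0.712), Chchd1 (0.07, adjusted p = 0.639) and Gadd45gip1 (0.69, adjusted p = 0.0983) were not called. The rRNAs rose: mt-Rnr1, of the small subunit, stood at 225 and 237 CPM in WT replicates 2 and 3 and at 303, 277 and 305 CPM in knockdown (0.34, adjusted p = 0.000854). The large subunit rRNA mt-Rnr2 stood at 285 and 293 CPM and at 369.7, 362 and 363 CPM (0.32, adjusted p = 0.000268). Over all 6 libraries the values were -0.11 and 0.37, since WT replicate 1 stood at 496 CPM for mt-Rnr1 and at 271 CPM for mt-Rnr2. The 13 mitochondrially encoded protein genes, the templates of these ribosomes, had a median of -0.55, and 7 fell and none rose, beside 18.0% and 16.3% of all genes.

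The other genes of mitochondrial translation were mixed without WT replicate 1, where 16.3% of all genes rose and 18.0% fell. Of 14 translation factors 1 rose and 2 fell: Tsfm, the exchange factor of the elongation factor Tu, rose by 0.54 (adjusted p = 0.00963), and Guf1, a back-translocating GTPase, and Mtif2, an initiation factor, had -0.49 and -0.23 (adjusted p = 0.00267 and 0.0353). With the GC trend removed Mtif2 was not called (-0.12, adjusted p = 0.259). Tufm, Gfm1 and Mtif3 were not called, at 0.11, -0.02 and 0.00. Among the aminoacyl-tRNA synthetases, which load tRNAs with amino acids, Aars2 rose (0.41, adjusted p = 0.0133), and Iars2 (-0.33, adjusted p = 0.000306) and Fars2 (-0.42, adjusted p = 0.0104) fell. The call of Aars2 was lost with the GC trend removed (0.08, adjusted p = 0.593) and on the TPM scale (0.36, limma adjusted p = 0.0705). Of 32 assembly and rRNA modification factors 9 rose and 3 fell. The RNA helicases Dhx30 (0.27, adjusted p = 0.00263) and Ddx28 (0.61, adjusted p = 0.0045) rose, and the protease subunit Spg7 (-0.39, adjusted p = 0.00213) and the rRNA methyltransferase Nsun4 (-0.45, adjusted p = 0.00631) fell. The median of these 32 genes was 0.12, beside -0.01 over all genes.

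Of 17 genes of mitochondrial transcription and RNA stability 5 rose and 4 fell, against the same shares of all genes. Polrmt, the mitochondrial RNA polymerase, stood at 20.7, 19.2 and 20.9 CPM in WT and at 36.6, 32.3 and 33.8 CPM in knockdown, every knockdown library above every WT library including WT replicate 1 (0.75, adjusted p = 0.00011). With the GC trend removed the value of Polrmt was 0.40 (adjusted p = 0.00478). On the TPM scale Polrmt stood at 29.1, 15.5 and 25.2 in WT and at 28.9, 41.3 and 35.2 in knockdown, so that knockdown replicate 1 lay just under WT replicate 1, and without WT replicate 1 it was not called there (0.78, limma adjusted p = 0.0876). Tbrg4 rose by 0.37, and Pnpt1, a polynucleotide phosphorylase, and Lrpprc, which stabilises mitochondrial mRNAs, had -0.33 and -0.23. The call of Pnpt1 was lost with the GC trend removed (-0.18, adjusted p = 0.0548). Tsfm, Mtif2, Fars2, Dhx30, Spg7, Pnpt1 and Lrpprc kept their sign but were not called by limma on log2(TPM + 1). Of 7 genes of membrane insertion and translational activation Cox14 (0.80) and Oxa1l, the insertase that receives the nascent chains (0.29), rose and none fell. Of 77 cytosolic ribosomal protein genes tested 5 rose and 2 fell, with a median of -0.06 without WT replicate 1 and -0.84 over all 6 libraries.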

How the data were processed

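RNA was sequenced in 3 WT and 3 ACSL5 knockdown libraries. StringTie, HISAT2, fastp and DESeq2 are named per the submitters' processing notes, with no versions or roles, and the builds named are human although the identifiers are mouse Ensembl. Expected counts and TPM, 1 table each, were deposited by the authors; the counting program is not given in the sources used here. Expected counts were rounded, filtered with filterByExpr, scaled by TMM and tested by edgeR 4.0.16 (quasi-likelihood, robust, R 4.3.3) over the whole table, two-sided, with Benjamini-Hochberg adjustment and a call at 0.05. TPM was tested with limma 3.58.1 on log2(TPM + 1). DESeq2 1.42.0, limma-voom, other scalings and filters, and fits with length or GC trends removed were alternatives. The fits were tested on simulated data. Genes named are, for each subunit, up to 5 called members with the highest and up to 5 with the lowest fold change whose groups did not overlap, the 2 with the smallest p, the 2 with the highest TPM, and fixed genes, and up to 2 called in each direction of the other lists by smallest p. Mrpl53, Mrpl10, Mrpl45, Mrps34 and the ends of ranges were named after their values were seen. Members and lists were chosen with earlier results of these data known. Promoter windows are RefSeq's, and gene overlaps and distances come from GENCODE M21.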

Additional observations from a re-analysis of the deposited data

How the results depend on the processing

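Without WT replicate 1 the medians of both subunits turned from negative to positive. Over all 6 libraries, leaving out 1 library at a time gave 0 to 26 members higher, 0 to 5 lower, and medians of -0.60 to 0.11 (large) and -0.56 to 0.12 (small); values outside 0 calls and negative medians came only without WT replicate 1. Members called higher over 6 libraries were 1 with DESeq2, 2 with the length trend or both trends removed and 29 with voom quality weights, which called 4 lower and gave a large subunit median of 0.12. Of 14679 genes, DESeq2 called 572 higher, the fits with the length trend and with both trends removed 433 and 250, and voom quality weights 3017. Without WT replicate 1, leaving out a further library gave 11 to 36 higher, 2 to 6 lower, and medians of 0.094 to 0.15 (large) and 0.10 to 0.16 (small). The lowest of these counts came from fits with a single WT library left, where fewer of all genes were called in each direction as well. The highest came without knockdown replicate 1, where 3154 of 14936 genes were higher and 3034 lower. On log2(TPM + 1) 15 were higher and on log2(TPM + 0.1) 16, beside 1459 and 1549 of 13881 genes. On log2(TPM + 1) with no filter 6 were higher and 1 lower, beside 728 and 491 of 26062 genes. At an adjusted p below 0.01, 17 were higher, beside 1488 of 15152 genes. Removing the length trend gave 8 lower, beside 2650 of 15152 genes. Library totals gave medians of 0.14 and 0.16, and voom quality weights 0.092 for the small subunit. Mrps12 and Mrpl46 stayed called in every alternative without WT replicate 1 that kept both other WT libraries. Mrpl53 was called with the GC trend removed (edgeR adjusted p = 0.00094) and with both trends removed (0.0041). It was also called on log2(TPM + 1) (limma adjusted p = 0.0216). Where a cause is not named above, the cause was not tested.

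Whether the replicate numbers pair the samples is not known. Deviations of same-numbered libraries correlated at -0.13, 0.04 and -0.19. Deviations in WT replicates 2 and 3 mirror those of WT replicate 1, so these correlations cannot show whether samples were paired. Against knockdown replicate 3, for example, WT replicates 1 to 3 gave 0.21, -0.20 and -0.19. With the replicate block and without WT replicate 1, 32 members were higher and 6 lower, and the large subunit median was 0.14. Of 15152 genes, 2843 were higher and 2910 lower in that fit. Over all 6 libraries the block gave 0 calls.

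Signs that turned against the fit without WT replicate 1 were as follows. Over all 6 libraries: Mrpl23 -1.58, Mrps7 -0.21, Mrps18b -0.32, Mrps18a -0.43, Mrps30 -0.44, Mrpl12 -0.54, Chchd1 -0.86, Aurkaip1 -0.37, Gadd45gip1 -0.20, mt-Rnr1 -0.11, Tufm -0.22, Tsfm -0.060, Mtif3 -0.14 and Oxa1l -0.017. With the GC trend removed: Mrpl12 -0.019, Tufm -0.013, Gfm1 0.056 and Mtif3 -0.023. With the length trend removed: Dap3 0.0053, Gfm1 0.0064 and Mtif3 -0.011. With both removed: Mrpl12 -0.053, Dap3 0.0017, Tufm -0.041, Gfm1 0.066 and Mtif3 -0.047. With the replicate block and both removed: Mrpl12 -0.069, Dap3 0.069, Tufm -0.067 and Gfm1 0.067, and with the block alone Dap3 0.027. On log2(TPM + 1), with or without the filter: Dap3 0.033, Ptcd3 0.067 and Mtif3 -0.078, and on log2(TPM + 0.1) 0.033, 0.068 and -0.081. Library totals gave Gfm1 0.011. Leaving out a further library gave ranges that crossed 0: Mrpl58 -0.11 to 0.0052, Dap3 -0.079 to 0.035, Chchd1 -0.018 to 0.15 and Mtif3 -0.050 to 0.082. Depth limits the low members: Mrpl23 had under 6 CPM in all libraries but WT replicate 1.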
